A study of Mus musculus with 10 samples.

Results

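Glycolysis, the pentose phosphate pathway and the tricarboxylic acid (TCA) cycle were followed through 37 listed genes in splenic type 2 conventional dendritic cells (cDC2). Members were taken by symbol, and a member counted as measured if at least 1 probe set named it and no other gene. Where several did, the probe set with the highest mean log2 intensity over all arrays was used. Of the 37 genes 33 were measured, among 19938 genes tested. Gapdh was read only by 25 probe sets that name several genes and is given no value, and Gpi1, Eno1 and G6pdx had no probe set naming them here. The cells had been sorted from digested spleens enriched for CD11c+ cells, and their RNA was hybridised to 10 one-colour arrays. There were 3 arrays of CD11c-Cre+ Notch2f/f cells (Notch2-11cKO) 24 hours after 200000000 sheep red blood cells (SRBC) given into the peritoneum, and 2 of untreated Notch2-11cKO cells. WT cells gave 3 arrays after the same SRBC dose and 2 without treatment. SRBC are a particulate foreign antigen. Cre is driven by the CD11c promoter, which is also active outside cDC2, so Notch2 can be deleted in other CD11c-expressing cells of these mice. The labels used here give no age and do not say whether replicates were separate mice, so the p-values measure a spread that may be technical.

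Glycolysis splits glucose into pyruvate, which is either reduced to lactate and exported or oxidised in mitochondria by pyruvate dehydrogenase and the TCA cycle. The pentose phosphate pathway branches off at glucose phosphate and yields NADPH and ribose phosphate. Dendritic cells are known to raise glucose uptake and glycolysis within minutes to hours of activation by microbial products, in part through the transcription factor HIF-1α.

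Array medians lay between 29.5 and 31.7 intensity units. WT SRBC 1 stood apart from WT SRBC 2 and 3 (r of log2 intensities over the brighter genes 0.929 and 0.928, against 0.984 between those), and Notch2-11cKO SRBC 3 from Notch2-11cKO SRBC 1 and 2 (0.947 and 0.936, against 0.972). Counts are therefore also given without both arrays. Both were picked because they lay apart from their groups, so leaving them out tends to narrow the spread that all comparisons share. A larger count without them is therefore no separate support. Intensities of the dendritic cell markers Itgax, Flt3 and Zbtb46 were 520 to 1450, 361 to 886 and 62.6 to 146 over the arrays. Notch2 itself had log2 intensities of 7.96, 7.64 and 7.23 in Notch2-11cKO SRBC, 8.37 and 8.17 in Notch2-11cKO untreated, 7.58, 7.09 and 7.09 in WT SRBC, and 8.11 and 8.14 in WT untreated. It was not lower in Notch2-11cKO cells (0.14, adjusted p = 0.915 untreated, and 0.35, adjusted p = 0.455 after SRBC). One probe set reads the gene and the deleted part is not given, so this signal does not check the labels.

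Promoters of 35 of the 37 members are in RefSeq's set for GRCm38.p6, as 54 windows of 300 bases, from 250 before each transcription start to 50 after it. Slc2a3 and Idh3a had no entry. The windows were searched on both strands for ACGTG and GCGTG, the cores of the HIF response element, and for CACGTG, an E-box that contains ACGTG. At least 1 HIF core was found in 45 of the 54 windows (83.3%), against 43.8% of all 32851 promoter windows. Counted by gene, 32 of the 35 members held one (91.4%), against 46.7% of 27025 genes. ACGTG was in 27 of the 54 windows, against 19.6% of all, GCGTG in 61.1%, against 32.4%, and CACGTG in 13.0%, against 7.2%. Members' windows were also richer in G and C (median 60.3%, against 52.7% for all), and the part of base composition in these shares was not tested. A match describes the letters and is not evidence of binding. Windows of 3 members are shown, 5′ to 3′, with the matches in capitals (CACGT is ACGTG read on the opposite strand). Mdh2 is shown as a member that passed the threshold in the same direction in both genotype comparisons. Hk2 and Pfkfb3 were chosen after their values were seen, because they moved in opposite directions in WT cells after SRBC.
Mdh2, chr5:135778399-135778698, plus strand: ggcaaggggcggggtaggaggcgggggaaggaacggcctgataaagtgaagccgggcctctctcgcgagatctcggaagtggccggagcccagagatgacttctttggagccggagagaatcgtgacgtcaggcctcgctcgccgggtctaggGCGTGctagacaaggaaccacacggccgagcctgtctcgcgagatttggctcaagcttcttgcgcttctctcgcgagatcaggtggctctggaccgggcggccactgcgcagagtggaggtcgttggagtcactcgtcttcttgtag
Hk2, chr6:82774405-82774704, minus strand: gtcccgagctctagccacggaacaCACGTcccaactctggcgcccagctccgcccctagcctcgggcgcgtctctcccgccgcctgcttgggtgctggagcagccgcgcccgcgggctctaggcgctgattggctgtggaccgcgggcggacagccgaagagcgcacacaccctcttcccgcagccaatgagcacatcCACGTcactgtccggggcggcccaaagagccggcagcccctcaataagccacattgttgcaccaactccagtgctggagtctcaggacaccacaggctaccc
Pfkfb3, chr2:11553880-11554179, minus strand: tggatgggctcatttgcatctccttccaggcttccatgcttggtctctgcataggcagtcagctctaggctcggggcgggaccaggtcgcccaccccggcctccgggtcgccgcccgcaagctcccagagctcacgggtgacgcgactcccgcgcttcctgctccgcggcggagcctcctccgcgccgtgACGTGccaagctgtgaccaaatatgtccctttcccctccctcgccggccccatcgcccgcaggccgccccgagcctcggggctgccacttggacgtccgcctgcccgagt
The Mdh2 window held 1 GCGTG that begins 97 bases before the start. The Hk2 window held ACGTG at 226 and 52 bases before the start, both read on the opposite strand, and the first of the Pfkfb3 windows held it at 60 bases before the start.

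**Figure D1:**
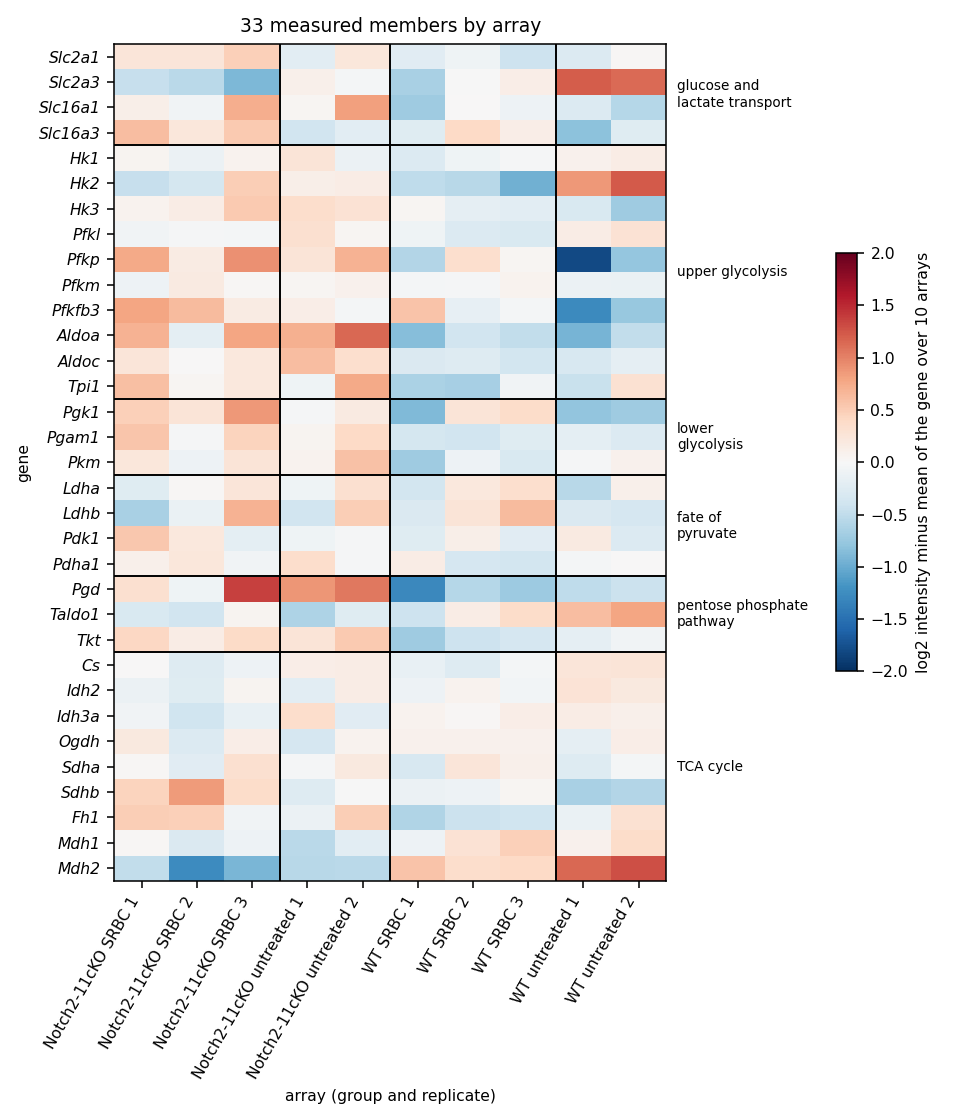
Log2 intensity of the 33 measured members (down the page, by role) on each of the 10 arrays (across), as the difference from the member's mean over all arrays; red is above that mean and blue below it. Mdh2 is blue on every Notch2-11cKO array and red on every WT array, while Aldoa, Aldoc and Pgd run the other way on most arrays.

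In untreated spleens, genes of several roles differed by genotype. Of 33 measured members 4 were higher and 3 lower in Notch2-11cKO cells, where 5.11% of all genes were called (2.95% higher and 2.16% lower). The higher genes were the phosphofructokinase Pfkp, the aldolases Aldoa and Aldoc and the hexokinase Hk3. The lower ones were Mdh2, the mitochondrial malate dehydrogenase, Slc2a3, a high-affinity glucose transporter, and Taldo1, the transaldolase of the pentose phosphate pathway. The median difference over the 33 members was 0.23 on the log2 scale, beside -0.02 over all genes. Shares of all genes, here and below, include dim genes, whereas most members are brighter than the median gene. With only genes above the median level tested, a smaller set, 1013 genes were called in this comparison, beside 1019 of all genes. The share called among those brighter genes was therefore above 5.11%. A call here means a Benjamini-Hochberg adjusted p under 0.05 over all genes in limma, and every difference is a log2 value ± its standard error.

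Among the transporters, Slc2a3 had log2 intensities of 6.68 and 6.55 in Notch2-11cKO untreated and 7.80 and 7.72 in WT untreated. Both Notch2-11cKO arrays were below both WT arrays, and the gene was 2.22-fold lower (-1.15 ± 0.26, adjusted p = 0.0259). Slc2a1, the widely expressed basal glucose transporter, had 7.43 and 7.87 in Notch2-11cKO untreated and 7.37 and 7.67 in WT untreated. Those arrays overlapped (0.13 ± 0.22, 95% interval -0.36 to 0.62, adjusted p = 0.903). The lactate carriers Slc16a1 and Slc16a3 differed by 0.85 ± 0.32 (adjusted p = 0.202) and 0.24 ± 0.25 (adjusted p = 0.804). So 1 of the 4 transporters passed, and it was lower.

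Upper glycolysis, the steps that phosphorylate glucose and split it into trioses, had 10 of 11 listed members measured, of which 4 were higher, none was lower and 6 did not pass (median difference 0.56). Pfkp, an isoform of the enzyme that commits sugar to glycolysis, had 8.79 and 9.22 in Notch2-11cKO untreated, against 6.73 and 7.75 in WT untreated. It was 3.41-fold higher (1.77 ± 0.39, adjusted p = 0.0222), and its WT arrays were further from each other than its Notch2-11cKO arrays were. Aldoa, the main muscle-type aldolase, had 9.66 and 10.09 in Notch2-11cKO untreated, against 8.02 and 8.46 in WT untreated (1.64 ± 0.33, 3.11-fold, adjusted p = 0.0132). Aldoc, the brain-type aldolase, had 5.82 and 5.54 in Notch2-11cKO untreated, against 4.88 and 5.02 in WT untreated (0.73 ± 0.16, 1.66-fold, adjusted p = 0.0205). In each of these 3 genes the genotypes did not overlap. With so few arrays a group, separate arrays are easily met without a true difference, and the share of all genes with them was not counted. Separation here and below describes the values and adds no support to a call.

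The hexokinases, which trap glucose in the cell, did not move together. Hk3, the isoform typical of myeloid cells, had 5.86 and 5.80 in Notch2-11cKO untreated, against 5.20 and 4.80 in WT untreated (0.83 ± 0.20, 1.78-fold, adjusted p = 0.0362). Hk2, the inducible isoform bound to mitochondria, had 6.53 and 6.56 in Notch2-11cKO untreated, against 7.29 and 7.64 in WT untreated. Both Notch2-11cKO arrays were below both WT arrays, but the difference did not pass (-0.92 ± 0.30, adjusted p = 0.132). Hk1 had 11.12 and 10.76 in Notch2-11cKO untreated, against 10.95 and 11.02 in WT untreated, and these overlapped (-0.04 ± 0.17, 95% interval -0.42 to 0.33, adjusted p = 0.967). Its probe set needs care and may read another gene. Its mean of 10.87 was near the range of 10.94 to 12.31 over 16 probe sets naming both Hk1 and the ribosomal gene Rpl17. The other Hk1 probe set had a mean of 5.76 and also did not differ (0.03 ± 0.25).

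Pfkfb3, whose product makes the allosteric activator of phosphofructokinase, had 9.08 and 8.91 in Notch2-11cKO untreated, against 7.68 and 8.20 in WT untreated. The arrays did not overlap, but the 2.07-fold difference did not pass (1.05 ± 0.30, adjusted p = 0.0722). Pfkl, Pfkm and Tpi1 differed by -0.04, 0.19 and 0.40 and did not pass. None of the 3 measured members of lower glycolysis passed, with differences of 0.82 ± 0.36 for the phosphoglycerate kinase Pgk1 (adjusted p = 0.325), 0.46 ± 0.22 for the mutase Pgam1 (adjusted p = 0.385) and 0.30 ± 0.26 for the pyruvate kinase Pkm (adjusted p = 0.729).

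At the branch from pyruvate none of 4 members passed. Ldha, the lactate dehydrogenase subunit that favours lactate production, had 8.07 and 8.49 in Notch2-11cKO untreated and 7.60 and 8.27 in WT untreated, which overlapped (0.35 ± 0.30, 95% interval -0.32 to 1.02, adjusted p = 0.731). Ldhb, the subunit typical of oxidative tissues, had 4.92 and 5.79 in Notch2-11cKO untreated and 5.01 and 4.97 in WT untreated. Pdk1, a kinase that inhibits pyruvate dehydrogenase, had 4.91 and 4.97 in Notch2-11cKO untreated and 5.18 and 4.73 in WT untreated. Neither differed past the threshold (Ldhb 0.37 ± 0.41, adjusted p = 0.823, and Pdk1 -0.02 ± 0.24, adjusted p = 0.989), nor did the pyruvate dehydrogenase subunit Pdha1 (0.18 ± 0.23, adjusted p = 0.857).

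In the pentose phosphate pathway the measured enzymes differed in both directions. Taldo1 had 7.70 and 8.06 in Notch2-11cKO untreated, against 8.92 and 9.10 in WT untreated, and was 2.19-fold lower (-1.13 ± 0.27, adjusted p = 0.037). Pgd, which makes NADPH in the oxidative branch, had 8.17 and 8.34 in Notch2-11cKO untreated, against 6.78 and 6.87 in WT untreated. That 2.69-fold separation did not pass (1.43 ± 0.39, adjusted p = 0.0663). Tkt, the transketolase that returns pentoses to glycolysis, differed by 0.52 ± 0.21 (adjusted p = 0.247).

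Of the 9 TCA cycle members, all measured, only Mdh2 passed, and their median difference was -0.11. Mdh2, which makes oxaloacetate in the last step of the cycle, had 9.89 and 9.91 in Notch2-11cKO untreated, against 11.60 and 11.74 in WT untreated. The gap between genotypes was far wider than the gap between replicates, and the gene was 3.42-fold lower (-1.77 ± 0.22, adjusted p = 0.000676). Its cytosolic counterpart Mdh1 differed by -0.60 ± 0.24 and did not pass (adjusted p = 0.247). Cs, the citrate synthase, had 8.62 and 8.64 in Notch2-11cKO untreated and 8.73 and 8.74 in WT untreated (-0.11 ± 0.19, 95% interval -0.52 to 0.30, adjusted p = 0.903). Sdha, the flavoprotein of succinate dehydrogenase, had 8.18 and 8.39 in Notch2-11cKO untreated and 7.94 and 8.17 in WT untreated (0.23 ± 0.25, 95% interval -0.32 to 0.77, adjusted p = 0.816). Its partner subunit Sdhb, and Idh2, Idh3a, Ogdh and Fh1, differed by between -0.27 and 0.48 and did not pass.

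These calls rested on 2 arrays a group. Each fit uses 1 spread per gene for all its groups, so the SRBC arrays also bear on these calls. In the 4 fits that leave a group with 1 array, that spread comes from the other groups alone. When each array was left out in turn, Mdh2 kept its call in all 10 fits (adjusted p 0.000292 to 0.0152) and was the only call left without WT untreated 1. Pfkp and Aldoa remained beside it without WT untreated 2, Aldoa without Notch2-11cKO untreated 1, and Aldoc without Notch2-11cKO untreated 2. Hk3 was also lost without WT SRBC 2 (adjusted p = 0.0553) or 3 (0.0528), and Taldo1 without WT SRBC 2 (0.056) or Notch2-11cKO SRBC 1 (0.057). The highest adjusted p in these fits was 0.149 for Aldoa, 0.199 for Aldoc, 0.305 for Hk3, 0.238 for Pfkp, 0.173 for Slc2a3 and 0.278 for Taldo1. The directions did not change, and the differences ranged over 1.42 to 1.86 for Aldoa, 0.59 to 0.87 for Aldoc, 0.63 to 1.03 for Hk3, 1.26 to 2.28 for Pfkp, -1.21 to -1.09 for Slc2a3 and -1.31 to -0.95 for Taldo1. Without both arrays that stood apart 12 members passed. They were the 7 above with Hk2 (-0.92, adjusted p = 0.00797), Pfkfb3 (1.05, adjusted p = 0.003), Pgk1 (0.82, adjusted p = 0.00544), Slc16a1 (0.85, adjusted p = 0.0294) and Pgd (1.43, adjusted p = 3e-04). Neither array is in this comparison, so the differences were those of the main fit and only the shared spread changed.

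**Figure D2:**
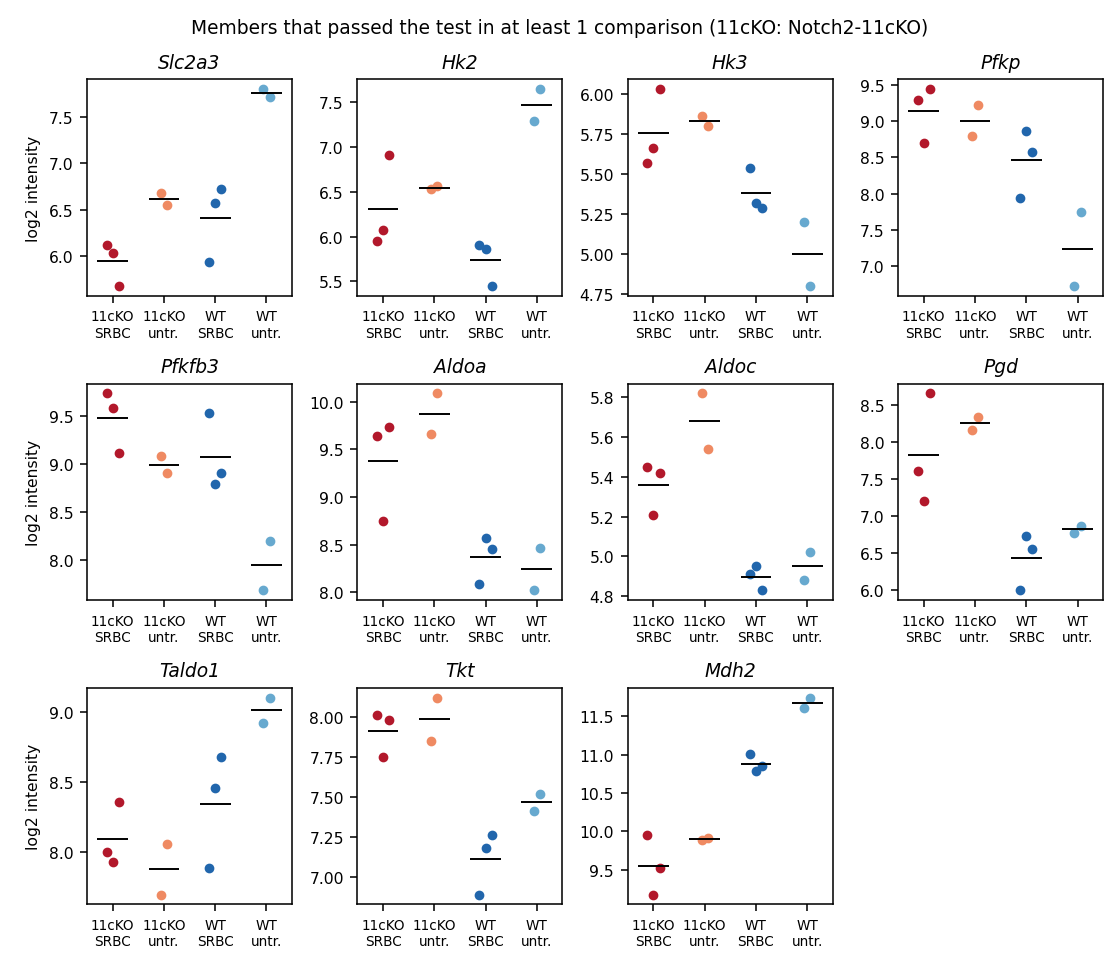
Log2 intensity on each array of the members past the threshold in at least 1 comparison, in panels, with 1 point per array and a bar at each group's mean. Aldoa, Aldoc, Pgd, Tkt and, by little, Hk3 lie higher on all 5 Notch2-11cKO arrays than on all 5 WT arrays, and Mdh2 lies lower. Slc2a3 and Hk2 are highest in WT untreated.

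Markers of other myeloid cells moved with genotype. Of 11 listed monocyte markers 7 were measured. Of these 4 were higher in untreated Notch2-11cKO cells and 1 lower, with summed intensities of 9380 to 10800 in Notch2-11cKO untreated and 1490 to 1700 in WT untreated. After SRBC 4 were higher (8060 to 8870 in Notch2-11cKO SRBC and 1380 to 1770 in WT SRBC). Of 13 macrophage markers 9 were higher untreated (sums 3970 to 4820 in Notch2-11cKO and 1000 to 1080 in WT) and 8 after SRBC (3610 to 4710 in Notch2-11cKO and 1690 to 2400 in WT). Of 10 markers of type 1 conventional dendritic cells 4 were higher untreated (1500 to 1520 in Notch2-11cKO and 574 to 685 in WT), and after SRBC 3 were higher and 1 lower (1240 to 1420 in Notch2-11cKO and 792 to 862 in WT). The 11 cDC2 markers had 1 higher and 3 lower untreated, with sums of 10500 to 10800 in Notch2-11cKO and 9840 to 10200 in WT. After SRBC 2 were higher and 2 lower, with sums of 7220 to 8830 in Notch2-11cKO and 7680 to 8370 in WT. Sums follow the brightest markers and do not show falls of single ones. The cDC2 marker differences ran from -4.09 to 1.73 untreated (median -0.42, 5 of 11 positive). After SRBC they ran from -2.91 to 2.07 (median -0.32, 4 of 11 positive). Of 8 measured plasmacytoid dendritic cell markers 2 were higher and 1 lower untreated. Their sums were 908 to 1070 in Notch2-11cKO and 784 to 942 in WT. After SRBC 3 were higher and 1 lower (927 to 1370 in Notch2-11cKO and 626 to 714 in WT). Of 9 measured B cell markers 2 were lower in each comparison. Their sums were 282 to 338 in Notch2-11cKO and 523 to 609 in WT untreated, and 226 to 252 and 290 to 336 after SRBC. Lists for neutrophils, erythroid, T and NK cells had at most 2 members called in one direction in either comparison. Of all genes, 5.11% were called untreated and 5.32% after SRBC. No marker was listed at 0, and the part of these cells in the members' differences was not tested. In sorted bulk samples a change in the share of a cell type and a change in RNA per cell cannot be told apart.

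After SRBC, the members that passed between genotypes were in the pentose phosphate pathway and the TCA cycle. Pgd and Tkt were higher and Mdh2 was lower in Notch2-11cKO cells, 3 of 33 members, where 5.32% of all genes were called (3.36% higher and 1.96% lower). The members' median difference was 0.36, beside -0.02 over all genes, and 24 of 33 differences were positive. With only genes above the median level tested, a smaller set, 1130 genes were called after SRBC, beside 1061 of all genes. The share called among those brighter genes was therefore above 5.32%, and 3 of 33 members is not read as an excess.

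Pgd had 7.61, 7.21 and 8.66 in Notch2-11cKO SRBC, against 6.0, 6.73 and 6.56 in WT SRBC. All Notch2-11cKO arrays were above all WT arrays, with Notch2-11cKO SRBC 3 the highest, and the gene was 2.63-fold higher (1.40 ± 0.32, adjusted p = 0.0278). Tkt had 8.01, 7.75 and 7.98 in Notch2-11cKO SRBC, against 6.89, 7.18 and 7.26 in WT SRBC, again without overlap (0.81 ± 0.17, 1.75-fold, adjusted p = 0.018). Taldo1 had 8.00, 7.93 and 8.36 in Notch2-11cKO SRBC and 7.89, 8.46 and 8.68 in WT SRBC, which overlapped (-0.25 ± 0.22, adjusted p = 0.656).

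Mdh2 had 9.95, 9.18 and 9.53 in Notch2-11cKO SRBC, against 11.01, 10.79 and 10.85 in WT SRBC. No array of one genotype reached the other, and the gene was 2.51-fold lower (-1.33 ± 0.18, adjusted p = 0.00138). Sdhb and the fumarase Fh1 were higher on every Notch2-11cKO array than on every WT array, but neither passed (0.62 ± 0.17, adjusted p = 0.0683, and 0.78 ± 0.22, adjusted p = 0.072). Cs had 8.50, 8.23 and 8.39 in Notch2-11cKO SRBC and 8.33, 8.22 and 8.45 in WT SRBC (0.04 ± 0.15, 95% interval -0.29 to 0.37, adjusted p = 0.934). Sdha had 8.22, 7.97 and 8.52 in Notch2-11cKO SRBC and 7.88, 8.44 and 8.31 in WT SRBC (0.03 ± 0.20, 95% interval -0.42 to 0.48, adjusted p = 0.968).

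The 10 upper glycolysis members all had positive differences, between 0.03 and 1.01, and none passed. All were also positive after quantile normalization or median centring, but those fits use the same arrays and are no separate support. Hk1 is counted by the probe set near the Rpl17 range, and the share of all genes with a positive difference was not counted. Aldoa had 9.64, 8.75 and 9.74 in Notch2-11cKO SRBC, against 8.09, 8.57 and 8.45 in WT SRBC (1.01 ± 0.27, adjusted p = 0.0544), and Aldoc had 5.45, 5.21 and 5.42 in Notch2-11cKO SRBC, against 4.91, 4.95 and 4.83 in WT SRBC (0.46 ± 0.13, adjusted p = 0.0668). Both aldolases were separated by genotype on these arrays as well. Pfkp had 9.29, 8.70 and 9.44 in Notch2-11cKO SRBC and 7.94, 8.87 and 8.57 in WT SRBC, which overlapped (0.69 ± 0.32, adjusted p = 0.295). Hk3 had 5.57, 5.66 and 6.03 in Notch2-11cKO SRBC, against 5.54, 5.32 and 5.29 in WT SRBC, a narrow separation (0.37 ± 0.16, adjusted p = 0.264). Slc2a1 had 7.89, 7.89 and 8.12 in Notch2-11cKO SRBC, against 7.41, 7.55 and 7.23 in WT SRBC. These did not overlap, and the difference did not pass (0.57 ± 0.18, 1.49-fold, adjusted p = 0.107). Slc2a3, lower without treatment, overlapped here (-0.46 ± 0.21, adjusted p = 0.288), and the lactate carriers Slc16a1 and Slc16a3 differed by 0.52 ± 0.26 and 0.36 ± 0.21.

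Hk1 had 10.93, 10.76 and 10.94 in Notch2-11cKO SRBC and 10.59, 10.79 and 10.84 in WT SRBC, which overlapped (0.14 ± 0.14, 95% interval -0.17 to 0.44, adjusted p = 0.698), and its other probe set differed by 0.28 ± 0.20. Hk2 had 5.95, 6.07 and 6.91 in Notch2-11cKO SRBC, against 5.91, 5.86 and 5.45 in WT SRBC. The Notch2-11cKO arrays were all above, 1 of them by little, whereas in untreated spleens both were below the WT arrays, and neither difference passed (0.57 ± 0.24, adjusted p = 0.25, after SRBC). Pfkfb3 had 9.74, 9.59 and 9.12 in Notch2-11cKO SRBC and 9.53, 8.79 and 8.91 in WT SRBC, which overlapped (0.41 ± 0.24, adjusted p = 0.438).

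In lower glycolysis Pgam1, Pgk1 and Pkm differed by 0.65 ± 0.18 (adjusted p = 0.0667), 0.61 ± 0.30 (adjusted p = 0.321) and 0.49 ± 0.21 (adjusted p = 0.243). Pgam1 has 3 probe sets naming it alone, and they disagreed on the call: tested probe set by probe set, the dimmest one differed by 0.85 ± 0.20 (adjusted p = 0.0321), and the one used here by 0.65 ± 0.18 (adjusted p = 0.0715). At the pyruvate branch Ldha had 7.92, 8.19 and 8.41 in Notch2-11cKO SRBC and 7.80, 8.37 and 8.50 in WT SRBC (-0.05 ± 0.25, 95% interval -0.60 to 0.49, adjusted p = 0.955). Ldhb had 4.65, 5.16 and 6.0 in Notch2-11cKO SRBC and 5.01, 5.56 and 5.93 in WT SRBC (-0.23 ± 0.34, adjusted p = 0.808). Pdk1 had 5.54, 5.21 and 4.81 in Notch2-11cKO SRBC and 4.75, 5.12 and 4.77 in WT SRBC (0.31 ± 0.19, adjusted p = 0.475). The genotypes overlapped in all 3 of these genes.

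Mdh2 kept its call in all 10 fits that left out 1 array (adjusted p 0.000717 to 0.00783). Without Notch2-11cKO SRBC 1 it was the only one left (Pgd adjusted p = 0.0603, Tkt 0.0754). Tkt was also lost without WT SRBC 2 (0.0512), and Pgd without WT SRBC 1 (0.0634) or 3 (0.0656) or WT untreated 1 (0.0522) or 2 (0.0524). Without Notch2-11cKO SRBC 2, Aldoa and Pgam1 passed as well, and without Notch2-11cKO SRBC 3, Sdhb and Fh1 did, for 5 members in each fit. Over the 10 fits the differences ranged over 0.98 to 1.70 for Pgd and 0.70 to 0.89 for Tkt. Without both arrays that stood apart 8 members passed, and the Pgd difference was 0.77 ± 0.18 (adjusted p = 0.0163).

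The comparisons before and after SRBC use different arrays. In them 26 of 33 members (78.8%) had the same sign of genotype difference, beside 63.3% of all genes. That share includes dim genes and was not matched to the members' level. Mdh2 was the only member called in both.

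**Figure D3:**
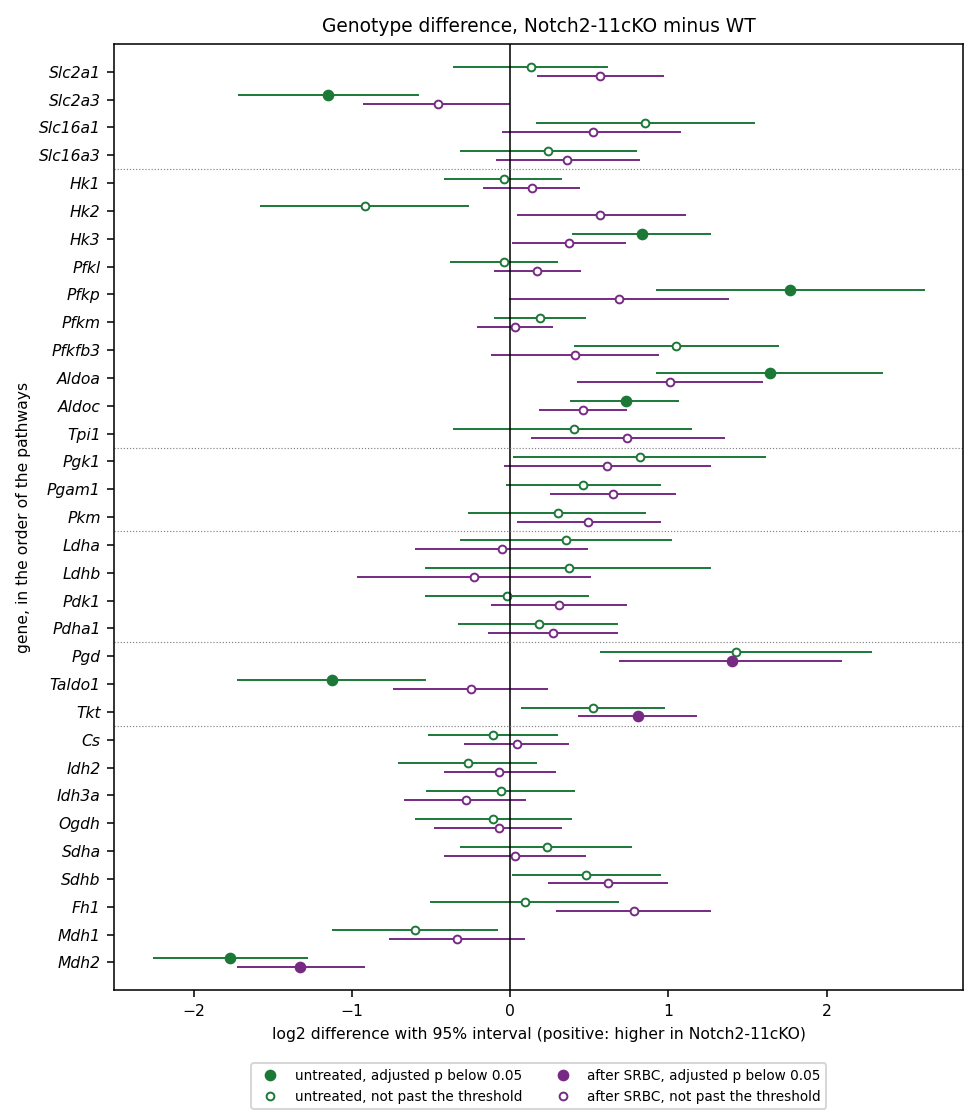
Log2 difference, Notch2-11cKO minus WT, for each measured member, with its 95% interval, in untreated and in SRBC-treated mice; filled points passed the threshold. Upper glycolysis lies mostly to the right of 0 in both, and Mdh2 lies to the left, at -1.77 untreated and -1.33 after SRBC.

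In Notch2-11cKO cells, none of the 33 members passed between SRBC and untreated spleens in limma, where 0.306% of all genes were called (0.140% higher and 0.166% lower). At an unadjusted p under 0.05 there were 4 (2 higher and 2 lower), and 10% of all genes met that limit. The lactate exporter Slc16a3 had 6.90, 6.50 and 6.81 in Notch2-11cKO SRBC, against 5.90 and 6.07 in Notch2-11cKO untreated (0.75 ± 0.23, adjusted p = 0.254), and Sdhb had 7.92, 8.34 and 7.85 in Notch2-11cKO SRBC, against 7.23 and 7.47 in Notch2-11cKO untreated (0.68 ± 0.19, adjusted p = 0.21). In these genes every SRBC array was the higher. Slc2a3 had 6.12, 6.04 and 5.68 in Notch2-11cKO SRBC, against 6.68 and 6.55 in Notch2-11cKO untreated (-0.67 ± 0.24, adjusted p = 0.352), and Aldoc differed by -0.32 ± 0.14 (adjusted p = 0.49). The median over the members was -0.06, beside 0.03 over all genes. Without both arrays that stood apart 1 member passed, Pgd, lower after SRBC (-0.84 ± 0.18, adjusted p = 0.0373).

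In WT cells, 3 of 33 members passed after SRBC, where 3.79% of all genes were called (1.82% higher and 1.97% lower). With only genes above the median level tested, a smaller set, 920 genes were called, beside 756 of all genes. The share called among those brighter genes was therefore above 3.79%, and 3 of 33 members is not read as an excess. Slc2a3, which brings glucose into the cell, and Hk2, which phosphorylates it, fell, and Pfkfb3, which activates the next committed step, rose. Hk2 had 5.91, 5.86 and 5.45 in WT SRBC, against 7.29 and 7.64 in WT untreated. Its fall was 3.30-fold (-1.72 ± 0.27, adjusted p = 0.00602). Slc2a3 had 5.94, 6.57 and 6.72 in WT SRBC, against 7.80 and 7.72 in WT untreated (-1.35 ± 0.24, 2.55-fold lower, adjusted p = 0.0102). Pfkfb3 had 9.53, 8.79 and 8.91 in WT SRBC, against 7.68 and 8.20 in WT untreated (1.14 ± 0.27, 2.20-fold, adjusted p = 0.0414). In all 3 genes the SRBC and untreated arrays were separate, by more than the spread within either group except for Pfkfb3, where WT SRBC 1 stood above the other two.

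The other members did not pass, with a median over all 33 of -0.08, beside 0.02 over all genes. Pfkp had 7.94, 8.87 and 8.57 in WT SRBC, against 6.73 and 7.75 in WT untreated, so that its lowest SRBC array was barely above its highest untreated one (1.22 ± 0.35, adjusted p = 0.0873). Mdh2 had 11.01, 10.79 and 10.85 in WT SRBC, against 11.60 and 11.74 in WT untreated, and these were separate (-0.79 ± 0.20, adjusted p = 0.0578). All 3 measured pentose phosphate members had negative differences (Taldo1 -0.66 ± 0.25, Pgd -0.40 ± 0.36, Tkt -0.35 ± 0.19). Slc2a1 and Ldha differed by -0.12 ± 0.20 (95% interval -0.57 to 0.32) and 0.29 ± 0.28 (95% interval -0.32 to 0.90). Cs differed by -0.41 ± 0.17 (adjusted p = 0.244).

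The 2 WT untreated arrays are shared with the untreated genotype comparison, in which Slc2a3 was also called. When 1 of them is left out the group has 1 array, and the spread used for it comes from the other groups alone. None of the 3 calls was then left, either without WT untreated 1 (adjusted p = 0.0601 for Hk2, 0.128 for Slc2a3, 0.373 for Pfkfb3) or WT untreated 2 (0.085, 0.0821 and 0.108 in the same order). The differences themselves stayed between -1.90 and -1.55 for Hk2, between -1.39 and -1.31 for Slc2a3 and between 0.88 and 1.39 for Pfkfb3 in those fits. Pfkfb3 was lost in 8 of the 10 fits that left out 1 array, and remained without WT SRBC 1 or Notch2-11cKO SRBC 3. Without WT SRBC 1 there were 6 calls, the 3 above with Pfkp, Pgk1 and Mdh2, and without both arrays that stood apart there were 7. Immediate-early and heat shock genes, which tissue digestion can induce, moved with treatment. Of 25 measured 12 were lower after SRBC in WT cells (sums 20500 to 26500 in WT SRBC and 51000 to 53300 in WT untreated), and 4 in Notch2-11cKO cells (21100 to 32000 in Notch2-11cKO SRBC and 43700 to 45000 in Notch2-11cKO untreated). In WT cells 4 of 13 macrophage markers (sums 1690 to 2400 in WT SRBC and 1000 to 1080 in WT untreated) and 3 of 10 markers of type 1 conventional dendritic cells (792 to 862 in WT SRBC and 574 to 685 in WT untreated) were higher after SRBC. Of the 11 cDC2 markers 3 were lower (7680 to 8370 in WT SRBC and 9840 to 10200 in WT untreated), and none of the 7 measured monocyte markers was called. Of all genes, 1.82% were called higher and 1.97% lower after SRBC in WT cells, and 0.166% lower in Notch2-11cKO cells. The part of any of these in the members' responses was not tested.

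**Figure D4:**
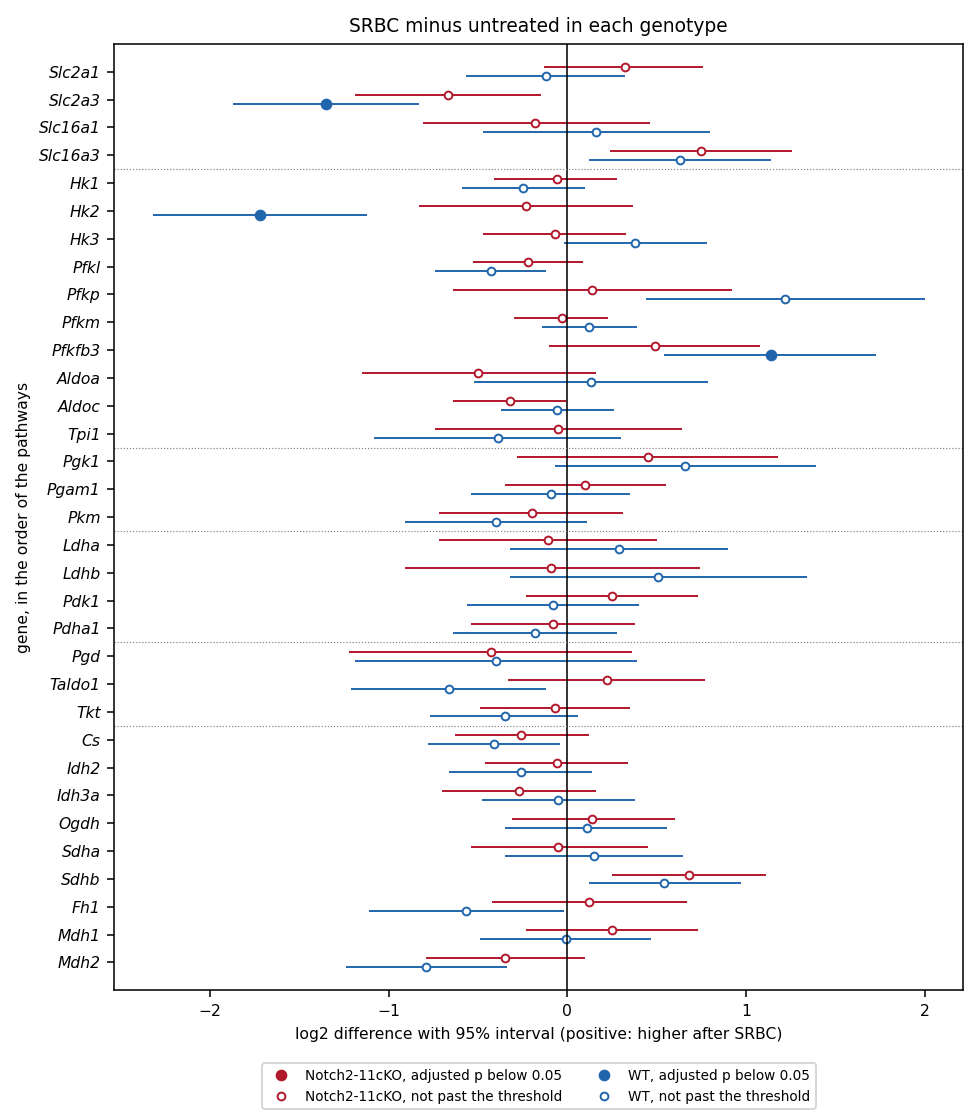
Log2 difference, SRBC minus untreated, for each measured member in Notch2-11cKO cells and in WT cells, with its 95% interval; filled points passed the threshold. Hk2 lies at -1.72 in WT cells and at -0.23 in Notch2-11cKO cells, and Slc2a3 lies left of 0 in both.

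Whether the SRBC response differed between genotypes was tested by the interaction, the Notch2-11cKO response minus the WT response. None of the 33 members passed in limma, where 0.0201% of all genes were called (0.0100% higher and 0.0100% lower), and 2 had an unadjusted p under 0.05, as did 6.5% of all genes, so that the members did not exceed the background. Hk2 had the widest gap: the response was -0.23 ± 0.27 in Notch2-11cKO cells and -1.72 ± 0.27 in WT cells, a difference of 1.49 ± 0.39 (95% interval 0.64 to 2.34, adjusted p = 0.36). In Notch2-11cKO cells 1 SRBC array of Hk2, replicate 3, was above both untreated arrays (6.91, against 6.53 and 6.56) and the others were below them (5.95 and 6.07). The other was Taldo1 (0.88 ± 0.35, adjusted p = 0.706), with responses of 0.22 ± 0.25 in Notch2-11cKO cells and -0.66 ± 0.25 in WT cells. For Pfkfb3, whose response passed in WT cells alone, the difference between the responses was -0.64 ± 0.38 (95% interval -1.48 to 0.19, adjusted p = 0.878), and for Slc2a3 it was 0.68 ± 0.33 (adjusted p = 0.799). Without both arrays that stood apart Hk2 passed (1.27 ± 0.26, adjusted p = 0.0268). The intervals leave room for sizeable differences in most members.

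Between genotypes each list of wider pathway genes had at most 3 calls, where 5.11% (untreated) and 5.32% (after SRBC) of all genes were called, so the genes below are described singly and not as a trend of their lists. Of 31 measured other genes of pyruvate dehydrogenase and the TCA cycle, 1 was called in each genotype comparison. It was Idh1, the cytosolic isocitrate dehydrogenase that makes NADPH outside the cycle, with 7.82 and 7.56 in Notch2-11cKO untreated, against 4.15 and 4.58 in WT untreated (3.32 ± 0.39, adjusted p = 0.000428). After SRBC it had 8.35, 7.66 and 7.62 in Notch2-11cKO, against 6.40, 5.21 and 5.15 in WT (2.29 ± 0.32, adjusted p = 0.00152). Its mitochondrial relative Idh2, a listed member, differed by -0.27 ± 0.20 and -0.07 ± 0.16 in the same comparisons and did not pass.

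Of 32 other genes of glycolysis and of sugar and lactate transport, 2 were higher and 1 lower in untreated Notch2-11cKO cells, and 2 were higher after SRBC, where 5.11% and 5.32% of all genes were called. Slc2a6, a transporter of the glucose transporter family found in lysosomes, was higher in both comparisons (1.88 ± 0.23, adjusted p = 0.000509, and 1.22 ± 0.19, adjusted p = 0.00279), and so was the monocarboxylate carrier Slc16a7 (1.64 ± 0.28, adjusted p = 0.00535, and 1.16 ± 0.23, adjusted p = 0.013). The muscle enolase Eno3 was lower untreated (-1.02 ± 0.26, adjusted p = 0.0458). Of 11 other pentose phosphate genes 1 passed, Prps2, which activates ribose phosphate for nucleotide synthesis. It was lower in untreated Notch2-11cKO than in untreated WT cells (-1.13 ± 0.25, adjusted p = 0.0236), and lower in WT SRBC than in WT untreated (-1.02 ± 0.23, adjusted p = 0.0336). Slc16a7 was lost in 2 of the 10 fits leaving out 1 array in each comparison, without WT untreated 1 (0.0799) or Notch2-11cKO untreated 1 (0.0683), and without WT SRBC 2 (0.059) or Notch2-11cKO SRBC 1 (0.0601). Eno3 and Prps2 were lost without either WT untreated array (adjusted p 0.239 and 0.215 for Eno3, 0.192 and 0.0925 for Prps2 by genotype, 0.288 and 0.143 for Prps2 after SRBC), and each without further single arrays.

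Of 27 measured regulators of glucose metabolism only the kinase Ikbke was called, higher in Notch2-11cKO cells both untreated (1.55 ± 0.20, adjusted p = 0.000863) and after SRBC (0.98 ± 0.17, adjusted p = 0.00483). Hif1a, which encodes HIF-1α, did not pass by genotype (0.17 ± 0.23 untreated and 0.23 ± 0.18 after SRBC) or after SRBC (0.48 ± 0.21 in Notch2-11cKO and 0.41 ± 0.21 in WT cells), with adjusted p between 0.348 and 0.861. Its mRNA level does not measure the protein, which is controlled by degradation. Myc, an activator of glycolytic genes, differed by 1.12 ± 0.38 between untreated genotypes (adjusted p = 0.145) and passed without WT SRBC 1 (adjusted p = 0.0302).

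Among 19 measured HIF-1 targets outside glucose metabolism 1 was called in each genotype comparison. Vegfa, the endothelial growth factor, was higher in untreated Notch2-11cKO cells (2.03 ± 0.37, adjusted p = 0.00792), and the collagen prolyl hydroxylase subunit P4ha1 was higher after SRBC (1.21 ± 0.20, adjusted p = 0.00502). In WT cells 3 of the 19 rose after SRBC, against the 1.82% of all genes called higher: Mxi1, a MYC antagonist (2.06 ± 0.32, adjusted p = 0.00533), Ndrg1 (2.03 ± 0.38, adjusted p = 0.0156) and the lysyl hydroxylase Plod2 (0.55 ± 0.12, adjusted p = 0.0299). All of these but P4ha1 were lost without WT untreated 1 (adjusted p = 0.109 for Vegfa, 0.103 for Mxi1, 0.22 for Ndrg1 and 0.228 for Plod2). Vegfa was also lost without Notch2-11cKO untreated 1 (0.0854), Ndrg1 without WT SRBC 2 (0.0557) or 3 (0.0595), and Plod2 without those (0.08 and 0.0802) or WT untreated 2 (0.167). None of these wider lists had a call in the SRBC response of Notch2-11cKO cells or in the interaction.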

How the data were processed

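The authors deposited one table of intensity on a linear scale, 28853 probe sets on 10 one-colour Affymetrix arrays, already normalized between arrays, as its nearly equal array medians show. Biotin labelling used the Ambion WT Expression kit, per the labels' protocols; the background, summary and normalization methods are not given in the sources used here. Values give no detection call, so no gene was called above background. Precision is limited by how few arrays each group has. Of the probe sets 21789 named 1 gene, 1621 several and 5443 none here.

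Values were log2 transformed, 1 probe set was kept per gene (999 of 19938 genes had more than 1), and no filter on dim genes was used. One limma fit with a mean per group (lmFit and eBayes, with the prior variance following the mean, on 6 residual plus 5.25 prior degrees of freedom) gave 5 two-sided comparisons, adjusted by Benjamini-Hochberg over all genes at 0.05. It was tested on simulated data. The members and lists were chosen with earlier results of these data known. Values by array were given for members past the threshold in any comparison and for 13 preset members (Gapdh and G6pdx were not measured), and up to 4 called genes of each other list were named, with Hif1a and Myc; other members named with values were chosen after their values were seen. Alternatives were the other probe sets (mean, singly, or for Hk1 and Ldhb, the last chosen after seeing the data), genes above the median level, quantile normalization, median centring, a variance prior without the trend or fitted robustly, weighted arrays, fits restricted to the groups compared, a replicate block, at least 2-fold, an offset of 16 before the log, and leaving out arrays. Software was limma 3.58.1 (R 4.3.3), and for motifs and plots Python 3.11.15 (pandas 2.3.3, NumPy 2.4.6, matplotlib 3.10.9).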

Additional observations from a re-analysis of the deposited data

How the results depend on the processing

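Counts of members called, beside 7, 3, 0, 3 and 0 for the untreated genotype difference, that after SRBC, the Notch2-11cKO response, the WT response and the interaction, ran from 1 to 10, 1 to 5, 0 to 0, 0 to 6 and 0 to 0 when 1 array was left out, and were 12, 8, 1, 7 and 1 without both arrays that stood apart. With only the groups compared the genotype counts were 11 untreated and 1 after SRBC. After SRBC the count was 8 over genes above the median level, 5 with no mean-variance trend and 7 with array weights, and the WT response had 8 with array weights. The replicate block gave 9, 5, 0, 3 and 0. Whether equal numbers pair the samples is not known. Deviations of same-numbered arrays correlated at 0.38, -0.17 and 0.32 between genotypes after SRBC and between -0.05 and 0.12 elsewhere. With 2 or 3 arrays a group these correlations cannot settle it. No value of a member reversed in sign past the threshold, and the causes of these shifts were not tested.

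Calls among all genes (1019, 1061, 61, 756 and 4) moved by over 1.5 times to 1822, 1615, 267, 1886 and 63 with array weights, to 1996, 2364, 398, 2300 and 604 without both arrays that stood apart, to 1966 (untreated genotype), 627 (genotype after SRBC) and 23 (Notch2-11cKO response) with only the groups compared, to 103 (Notch2-11cKO response) and 7 (interaction) with no trend, to 578 (genotype after SRBC) and 482 (WT response) at 2-fold or more, and to 2 (interaction) over genes above the median level. With 1 array left out they ran from 418 to 1390, 649 to 1256, 2 to 183, 101 to 1331 and 0 to 44. The interaction's 2 higher and 2 lower calls were 1 and 2 with quantile normalization. Calls of members lost were Hk3 (adjusted p = 0.0512) and Pfkfb3 (0.0631) with quantile normalization, Taldo1 (0.0536) with median centring, Pgd (0.0874), Tkt (0.0637) and Pfkfb3 (0.0779) with only the groups compared, and Hk3 and Aldoc (untreated) and Tkt (after SRBC) by the 2-fold limit. Of the other named genes, calls lost were Eno3 with quantile normalization (0.0674) and the offset of 16 (0.0506), Prps2 in WT with only the groups compared (0.056), Plod2 with quantile normalization (0.0712), no trend (0.0514), only the groups compared (0.0906) and the 2-fold limit, and Ikbke after SRBC by the 2-fold limit. The other Ldhb probe set also passed in no comparison. Arrays without a detection call leave dim members such as Pfkm without a known floor.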

Other observations

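Acod1, which encodes the enzyme that diverts a TCA cycle intermediate into itaconate in activated myeloid cells, was singled out after its values were seen. It had log2 intensities of 6.78, 6.41 and 9.86 in Notch2-11cKO SRBC and 6.27 and 6.18 in Notch2-11cKO untreated, and 5.48, 5.85 and 5.80 in WT SRBC and 5.34 and 5.23 in WT untreated. Notch2-11cKO SRBC 3, the array that stood apart from its group, was far above all the others, and every Notch2-11cKO array was above every WT array. No difference passed the threshold (1.98 ± 0.67, adjusted p = 0.131, between genotypes after SRBC, and 0.94 ± 0.82, adjusted p = 0.73, untreated).

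Txnip, an inhibitor of glucose uptake whose mRNA follows glucose supply, had 8.66, 8.52 and 6.52 in Notch2-11cKO SRBC and 9.09 and 8.44 in Notch2-11cKO untreated, and 8.44, 7.20 and 7.32 in WT SRBC and 9.28 and 8.49 in WT untreated. It was also chosen after its values were seen. The lowest value was again on Notch2-11cKO SRBC 3, and WT SRBC 1, the other array that stood apart, was the highest of its group. Txnip did not pass in any comparison (-0.86 ± 0.59, adjusted p = 0.69, after SRBC in Notch2-11cKO cells and -1.23 ± 0.59, adjusted p = 0.325, in WT cells).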
